A study of Mus musculus with 4 samples.

Results

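A run of 7 genes or transcripts named by the array files lies on mouse chromosome 13, from Gm7969 to Adcy2, with AA414992 near its middle. They were chosen by name, as Gm7969, CJ206177, LOC101056207, AA414992, LOC101056219, BB713741 and Adcy2, for their place on the chromosome and after their signals had been seen to be higher with Rif1 siRNA. Those differences and the closeness of the genes are therefore a description with no test. The 7 names matched 9 of the 39429 probes and 7 of the 30199 gene names on the array. All 9 probes passed the filter on low signals, which 27758 probes passed. Adcy2 passed it only through the 2 Rif1 siRNA arrays, on which it was high. Only 1 probe carried the name Adcy2, so no probes of Adcy2 could be compared with each other.

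The RNA came from E14tg2a cells, a line of mouse embryonic stem (ES) cells grown with serum and leukemia inhibitory factor. There was 1 array for untreated cells (0 h), 1 for control siRNA at 72 h, and 1 each for Rif1 siRNA at 48 h and at 72 h after transfection. By the methods, the Rif1 siRNA was a mix of mRif1#2 and NC#1. With a single array a condition, replicates and p-values are lacking for every difference given here. A second experiment that the methods mention is not analysed here. The level of a probe is its processed signal over the array's 75th percentile, and the error given with it is the error the scanner software assigned to that spot, not a spread between cultures.

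In the mouse embryo the genome is first widely transcribed at the 2-cell stage, and a small share of ES cells in culture at any time passes through a state in which transcripts of that stage, such as those of Zscan4, are made again. Rif1 is a chromatin-bound protein that sets the timing of DNA replication and is known to restrain Zscan4 in ES cells. Adenylyl cyclases make the second messenger cyclic AMP from ATP, and Adcy2, known mainly from the brain, is one of the forms that Gβγ subunits stimulate. The functions of the other 6 genes are not given in the sources used here. RefSeq lists Gm7969 and LOC101056219 (there named Urml) as long noncoding RNAs, AA414992 as a miscellaneous RNA and Adcy2 as protein coding. It matched 4 of the 7 names, and the other 3 (CJ206177, LOC101056207 and BB713741) are known here by the array's names. The array files describe BB713741 as a cDNA clone from 2-cell eggs.

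The sequences of the probes show which members of the run an array can tell apart. Each probe has 60 bases, printed 5′ to 3′ from the array files with its mm9 position. The probes of CJ206177 and AA414992 lie 184 kb apart and on opposite strands, yet 58 of their 60 bases are identical. The capitals mark the 2 bases that differ, which are A4G and C24T from the CJ206177 probe to the AA414992 probe, counted from the 5′ end.
CJ206177 (A_55_P2003981), chr13:68137962-68138021, minus strand: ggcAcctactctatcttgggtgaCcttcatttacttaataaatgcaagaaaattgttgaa
AA414992 (A_55_P2119737), chr13:68321651-68321710, plus strand: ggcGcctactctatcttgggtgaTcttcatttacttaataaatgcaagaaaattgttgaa

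The 2 probes of Gm7969 overlap, and they are shown because the array files place them on the same stretch of the genome although their bases are not all the same. They share 50 of 52 aligned bases. The capitals mark the differences, T12C and C15G from the first probe to the second, with positions counted on the first.
Gm7969 (A_66_P121446), chr13:68054070-68054129, plus strand: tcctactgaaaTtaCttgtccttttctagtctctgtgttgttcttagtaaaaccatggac
Gm7969 (A_55_P2006677), chr13:68054078-68054137, plus strand: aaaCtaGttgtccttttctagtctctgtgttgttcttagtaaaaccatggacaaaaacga

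The 2 probes of BB713741 also overlap and share 54 of 58 aligned bases. Capitals again mark the differing bases, which are T7C, T9C, T26A and T32C from the first to the second, again at the same mm9 positions. Both probes have close relatives among unnamed probes on other chromosomes, given further below.
BB713741 (A_55_P2009861), chr13:68498549-68498608, plus strand: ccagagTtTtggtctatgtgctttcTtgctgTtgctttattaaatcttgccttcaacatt
BB713741 (A_55_P1954092), chr13:68498551-68498610, plus strand: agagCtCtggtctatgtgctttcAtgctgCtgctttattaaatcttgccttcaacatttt

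The probes of LOC101056207, LOC101056219 and Adcy2 share no word of 16 bases with another member. The first pair could still be aligned over 44 bases, of which 32 were identical (72.7%). The 3 sequences are shown to set this looser likeness beside the near-identical pairs above, and they carry no capitals.
LOC101056207 (A_55_P2032419), chr13:68223652-68223711, minus strand: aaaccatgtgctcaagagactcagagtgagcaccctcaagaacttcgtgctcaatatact
LOC101056219 (A_55_P2060849), chr13:68368025-68368084, minus strand: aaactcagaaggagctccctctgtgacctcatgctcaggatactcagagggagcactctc
Adcy2 (A_51_P337523), chr13:68759669-68759728, minus strand: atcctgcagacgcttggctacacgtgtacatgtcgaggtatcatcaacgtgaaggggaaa

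The array files place the probes on both strands along the run, which does not show the strand a signal came from. The probes of Gm7969, AA414992 and BB713741 are placed on the plus strand, and those of CJ206177, LOC101056207, LOC101056219 and Adcy2 on the minus strand. A poly(A) signal word, AATAAA or ATTAAA on the probe's own strand, is in 4 of the 9 member probes, against 16.7% of all 39429 probes. AATAAA starts at base 37 in the probes of CJ206177 and AA414992. ATTAAA starts at base 39 and base 37 in those of BB713741. Since the members of each pair overlap or are near copies, these 4 matches come from 2 sequences, and a match is only a match of letters.

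All 9 probes were higher with Rif1 siRNA at 72 h and at 48 h than with control siRNA at 72 h, and this is the pattern the genes were selected on. At 72 h the folds ran from 7.44 to 21.1 with a median of 11.2. Over all 25891 probes with a value the median log2 difference was -0.05. All 9 probes were over 2-fold higher, where 2.82% of the 27758 probes that passed the filter were that much higher and 1.01% that much lower. The 9 include Adcy2, which passed the filter only through the arrays on which it was high. At 48 h the folds of the 9 probes ran from 6.23 to 19.2 with a median of 10.1, and 3.17% of all probes past the filter were over 2-fold higher and 1.2% lower. Both comparisons use the same control array, harvested at 72 h, so at 48 h the harvest time differs together with the siRNA. On each of the 9 probes the error ranges of the control siRNA array and of both Rif1 siRNA arrays were apart. In bulk RNA, more cells that make a transcript and more of it per cell cannot be told apart.

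**Figure D1:**
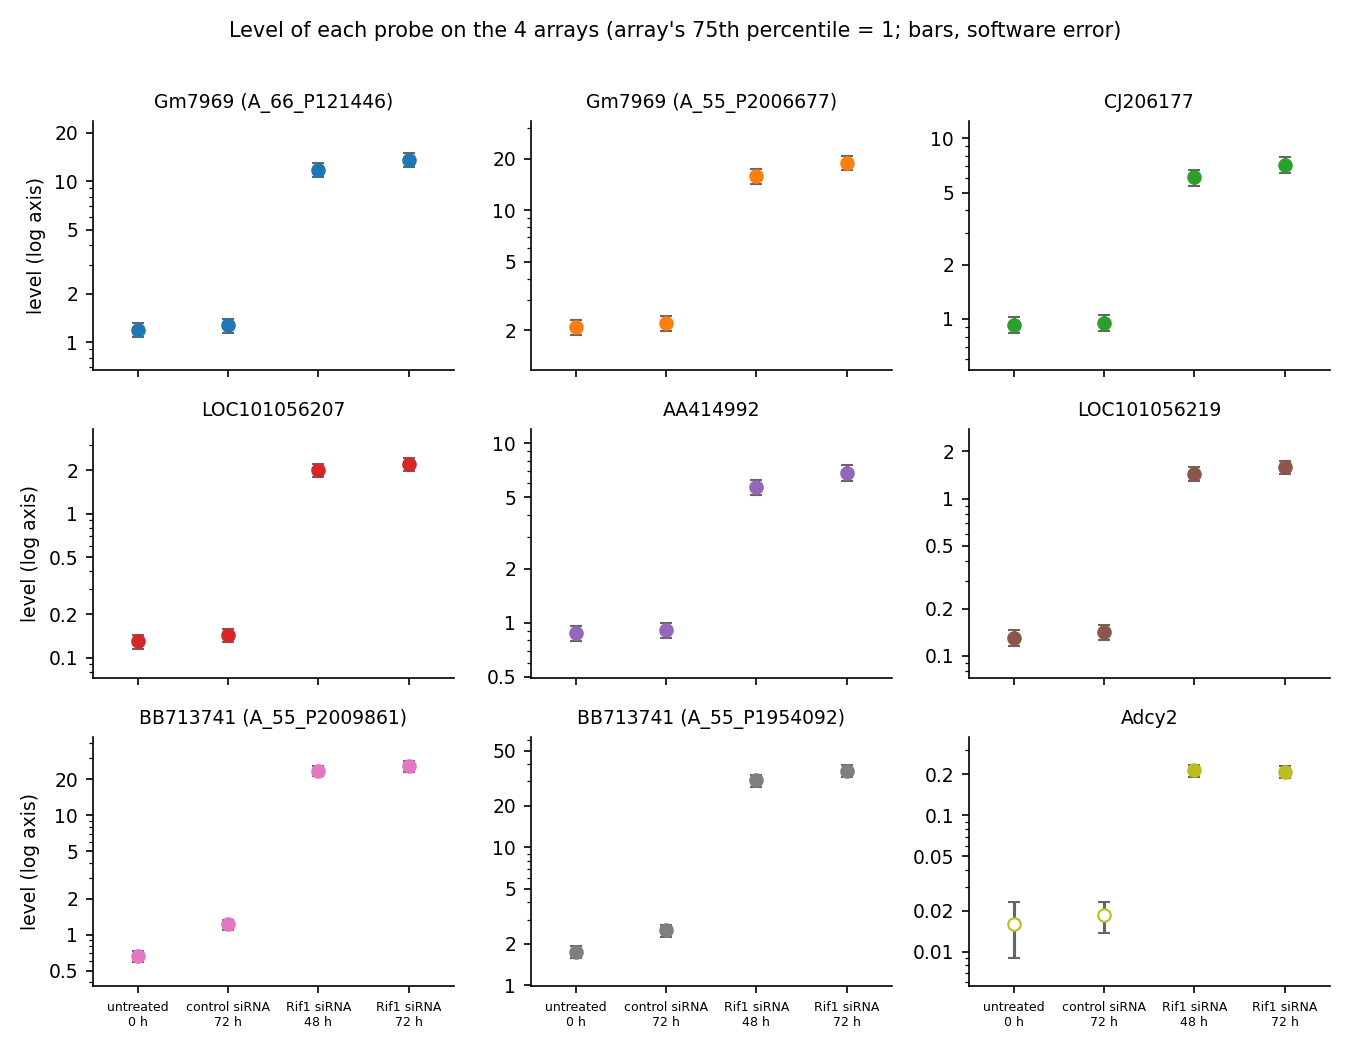
Level of each of the 9 probes (array's 75th percentile = 1, log axis with its own range in each panel) on the 4 arrays; bars are the scanner software's error and open points are not well above background. The Rif1 siRNA arrays at 48 h and 72 h sit together, well above untreated and control siRNA, for each probe; Adcy2 is open on the untreated and control siRNA arrays.

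Gm7969, the first gene of the run, had by its probe A_66_P121446 a level of 1.19 ± 0.120 untreated, 1.27 ± 0.127 with control siRNA, 11.8 ± 1.18 at 48 h and 13.5 ± 1.35 at 72 h of Rif1 siRNA. Its probe A_55_P2006677 read 2.09 ± 0.209, 2.20 ± 0.220, 15.8 ± 1.58 and 19.0 ± 1.90 in the same order. On both probes the 2 Rif1 siRNA arrays were high and the 2 others low, and the error ranges within each of these pairs of arrays overlapped. Against control siRNA the 72 h values were 10.6-fold and 8.61-fold, a difference in log2 of 0.31 between probes whose combined software error was 0.29.

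CJ206177 read 0.930 ± 0.0932, 0.956 ± 0.0957, 6.06 ± 0.606 and 7.11 ± 0.711 on the same 4 arrays. AA414992 read 0.877 ± 0.0880, 0.912 ± 0.0913, 5.68 ± 0.568 and 6.85 ± 0.685. These are the near-identical probes printed above, which differ at 2 bases, so the array cannot assign the signal to one of the 2 places. Their folds at 72 h were 7.44 and 7.50, which differ by 0.01 in log2 with a combined error of 0.29. They were the lowest folds of the 9 probes, with Adcy2 taken over its own dim control level. With another background correction, normexp, that of Adcy2 was lower, at 3.63-fold. The ranks of the 9 probes ran from 73 to 223 among the 25891 probes with a value.

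LOC101056207 read 0.130 ± 0.0142, 0.144 ± 0.0149, 2.00 ± 0.200 and 2.22 ± 0.222 across the arrays in the order untreated, control siRNA, 48 h and 72 h. LOC101056219, listed as the long noncoding RNA Urml by RefSeq, read 0.130 ± 0.0146, 0.142 ± 0.0149, 1.44 ± 0.144 and 1.59 ± 0.159. Neither gene's untreated and control siRNA values were apart beyond their errors, and the same holds for the 2 Rif1 siRNA values. The 72 h folds were 15.4 for LOC101056207 and 11.2 for LOC101056219. At 48 h they were 13.9 and 10.1.

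BB713741, from the 2-cell egg library, was read by 2 probes. Its probe A_55_P2009861, with the highest measured fold of the run, read 0.663 ± 0.0666 untreated, 1.22 ± 0.122 with control siRNA, 23.5 ± 2.35 at 48 h and 25.7 ± 2.57 at 72 h of Rif1 siRNA. Its probe A_55_P1954092 read 1.76 ± 0.176, 2.50 ± 0.250, 30.6 ± 3.06 and 35.9 ± 3.59. These were the only probes of the 9 whose untreated and control siRNA values were apart beyond their errors. The 72 h folds of 21.1 and 14.4 differed by 0.56 in log2, with a combined error of 0.29, although the probes overlap by 58 bases, and the second lay below the 15.4 of LOC101056207. Against untreated cells in place of control siRNA the first probe stood at 38.8-fold and the second at 20.4-fold.

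Adcy2, the last gene and the only one of the 7 that RefSeq lists as protein coding, was dim. It read 0.0160 ± 0.00701 untreated and 0.0185 ± 0.00485 with control siRNA, neither well above background. At 48 h of Rif1 siRNA it read 0.214 ± 0.0215 and at 72 h 0.208 ± 0.0209, both well above background. The fold over control siRNA is therefore uncertain. Taken over the probe's own dim control level, which lay above that array's lowest level well above background, it was 11.6 at 48 h and 11.2 at 72 h. The true fold may be lower or higher, and the software error of the 72 h log2 difference was 0.40. Over untreated cells, set at that array's lowest level well above background, it was at least 8.83-fold at 72 h. The share of spots well above background also differed, at 58.8% untreated, 62.8% with control siRNA, and 71.5% and 74.1% on the Rif1 siRNA arrays. Its part in these folds was not tested. With normexp background correction, which adds an offset of 50 before the log, the difference to control siRNA was 3.63-fold at 72 h.

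Between the Rif1 siRNA arrays 8 of the 9 probes were higher at 72 h than at 48 h, by 1.10-fold to 1.20-fold, and Adcy2 was at 0.973. All 9 pairs of error ranges overlapped, 0 of the 9 probes were over 2-fold higher, and over all probes 0.494% were. Rif1 itself, the gene the siRNA targets, was read at 5.55 ± 0.555 untreated, 5.42 ± 0.542 with control siRNA, 2.15 ± 0.215 at 48 h and 4.15 ± 0.415 at 72 h. Its level at 72 h was thus 0.765 of that with control siRNA, against 0.396 at 48 h. Over the same interval none of the 9 probes fell beyond its error.

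Between control siRNA and untreated cells the run was not uniform. In this comparison transfection and time in culture differ together. These folds were 1.03 for CJ206177, 1.04 for AA414992, 1.06 and 1.05 for the Gm7969 probes, 1.09 for LOC101056219 and 1.11 for LOC101056207. The BB713741 probes stood at 1.84 and 1.42. Adcy2 has no value, since it was dim on both arrays. None of the 8 probes with a value was over 2-fold higher, where 0.591% of all probes were. The SD of this log2 difference was 0.26 over the 22551 probes that both arrays read above background.

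The 2-cell gene families that the study named, among them Zscan4, Tcstv1 and Usp17l, were set beside the run, with 25 probes of 17 genes on the array. Of these 24 were over 2-fold higher at 72 h and at 48 h, where 2.82% and 3.17% of all probes that passed the filter were. This list was drawn up by the study on these samples, so its direction is no independent evidence. Their median fold at 72 h was 20.4, and their median fold between control siRNA and untreated cells was 1.92. In the latter 10 of 25 were over 2-fold, where 0.591% of all probes were. Untreated, 23 of the 25 were well above background, and the values of the rest rest on a dim signal. In that comparison 3 of the 25 probes lay within the SD of 0.26, as did 6 of the 8 member probes with a value. The difference between the lists was not tested.

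**Figure D2:**
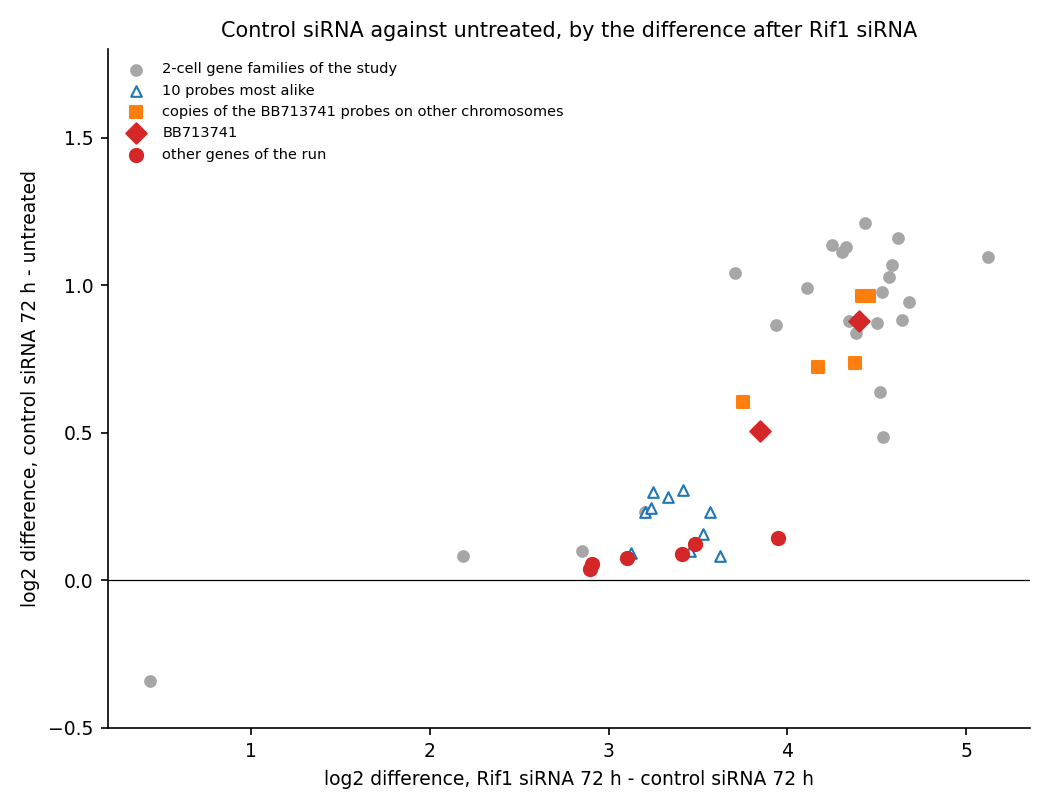
Log2 difference between control siRNA and untreated cells (vertical) against that between Rif1 siRNA at 72 h and control siRNA (horizontal), 1 point a probe measured on all the arrays it uses. The 6 member probes other than BB713741 sit at 0.04 to 0.14 on the vertical axis, while BB713741 and its copies on other chromosomes sit at 0.51 to 0.96 among the 2-cell families; both axes use the control siRNA array.

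The BB713741 probes had relatives among the array's other probes. Of these, 5 unnamed probes, placed by the array files on chromosomes 7, 8, 15, X and the unplaced part of Y, share words of 16 bases with its probes and carry the word ATTAAA. At 72 h of Rif1 siRNA they were 13.5-fold to 22.0-fold higher than with control siRNA. At 48 h they were 11.5-fold to 18.8-fold higher. Between control siRNA and untreated cells they were 1.52-fold to 1.95-fold higher, close to the 1.42 and 1.84 of BB713741. An example is A_55_P2114318 on chromosome 7, which shares 49 of 57 aligned bases with the first BB713741 probe and read 0.589, 1.15, 21.6 and 25.3 on the 4 arrays. How much of the signal at BB713741 came from each of these places was not tested. The copies with the highest and the lowest identity to that probe without gaps, 53 and 32 of 58 bases, are printed with ATTAAA in capitals.
A_55_P2105843, chr8:4967873-4967932, plus strand: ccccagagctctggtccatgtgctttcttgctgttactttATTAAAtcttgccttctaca
A_55_P1960936, chr15:14981269-14981328, minus strand: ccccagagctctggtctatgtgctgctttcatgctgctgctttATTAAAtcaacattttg

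Sharing a word of sequence did not always go with the change. Of 7 other probes with such a word, the remaining 2 did not move over 2-fold. Gm2483 on chromosome X shares a word with CJ206177 and AA414992, and its fold was 1.06 at 72 h and 1.34 at 48 h. The unnamed probe A_55_P2155567 on chromosome 16 shares one with Gm7969, and its fold at 72 h was 0.973. With words of 12 bases, 145 other probes matched, of which 100 passed the filter and 8 were over 2-fold higher at 72 h.

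The place of the probes was part of the selection, and the other probes between them were not selected. The run from the first Gm7969 probe to the Adcy2 probe spans 706 kb on mm9. It holds 6 other probes, of which 5 passed the filter. One of them, the unnamed A_55_P2180861 at chr13:68265497-68265556 between LOC101056207 and AA414992, read 0.185, 0.235, 1.45 and 1.67 on the 4 arrays, 7.10-fold higher at 72 h and 6.16-fold at 48 h than with control siRNA. It is not among the 7 because the array gives it no gene name. The other 4 belong to 3 genes in the 261 kb between BB713741 and Adcy2. Mtrr, which reactivates methionine synthase, was at 0.976 of its control siRNA level at 72 h. Fastkd3, a mitochondrial RNA-binding protein gene, was at 1.03 and 1.01 by its 2 probes, and 1700001L19Rik was at 1.25. Adcy2 is therefore set apart from the other members by 3 genes that were not over 2-fold.

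**Figure D3:**
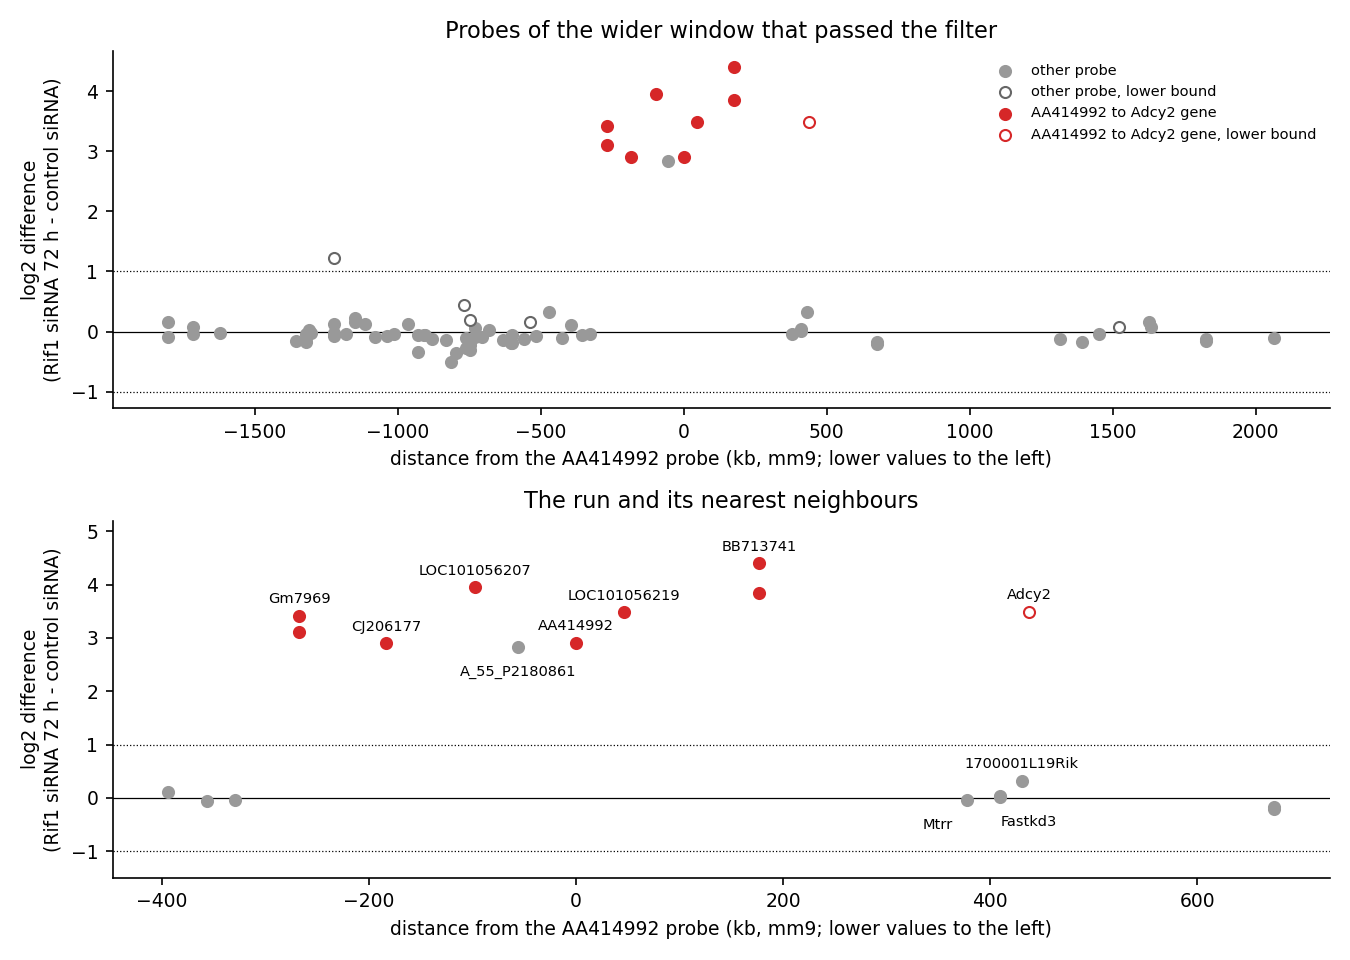
Log2 difference between Rif1 siRNA at 72 h and control siRNA against the distance in kb from the AA414992 probe, for probes that passed the filter in a window of chromosome 13 (top) and around the run (bottom). Open points, labelled lower bounds, are probes dim with control siRNA, and that of Adcy2 uses its own dim control level. Dotted lines mark 2-fold. The members lie between 2.90 and 4.40, with the unnamed A_55_P2180861 at 2.83, and the labelled genes between BB713741 and Adcy2 lie near 0.

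The other probes of a wider window were counted as well. This window, with probes from 1803 kb before to 2065 kb after the AA414992 probe, held 91 other probes. Of these 74 passed the filter, and 2 of the 74 were over 2-fold higher at both times and 0 lower. Over all probes that passed, 2.82% were higher and 1.01% lower at 72 h, and 3.17% and 1.2% at 48 h. The counts in the window are near these shares and show nothing particular to it. The 2 probes were A_55_P2180861 and 1 of 3 probes of Ptdss1, which makes phosphatidylserine. This Ptdss1 probe was dim on the untreated and control siRNA arrays and passed the filter through the Rif1 siRNA arrays. At 72 h it stood at 2.33-fold over its own dim control level, while the other 2 Ptdss1 probes were at 1.09 and 0.979. Zinc finger genes of the Zfp and Rsl names, a large group of transcriptional repressors in this window, had 28 probes past the filter. None of the 28 was called over 2-fold either way at 72 h, which in a list of this size is near the share over all probes. Their median log2 difference was -0.06, against -0.05 over all probes. The nearest gene before Gm7969, AU016102, was dim on all 4 arrays, and Papd7 (Tent4a in RefSeq), a poly(A) polymerase gene beyond Adcy2, was at 0.915.

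Among the adenylyl cyclases the values differed in how much they could show. The 10 cyclase genes had 14 probes, of which 10 passed the filter. Of these only that of Adcy2 was called over 2-fold higher at 72 h or 48 h, bounds included. Over all probes that passed, 2.82% were over 2-fold higher at 72 h and 3.17% at 48 h. That no other cyclase probe was called is near these shares. Since Adcy2 was chosen for its high signal, its call says nothing about the cyclases as a group. Adcy7, of the same Gβγ-stimulated class, read 0.145 untreated, 0.167 with control siRNA, and 0.196 and 0.199 at 48 h and 72 h of Rif1 siRNA, a fold of 1.19 at 72 h. Adcy4, the third of that class, was dim on the untreated and control siRNA arrays and gave no value at 72 h. The calcium-inhibited Adcy6 was at 0.854 and Adcy5 at 0.577 and 0.883 by 2 of its probes. A further Adcy5 probe, A_55_P2106645, read 0.00497 and 0.0103 on the untreated and control siRNA arrays, both dim, and 0.0108 and 0.0116 with Rif1 siRNA, both well above background, and gave no fold. Adcy9 was at 0.915 and Adcy3, known from olfactory cilia, at 1.05. Adcy1, which calcium and calmodulin stimulate, rested on a bound of 1.16, and it was likewise dim on the first 2 arrays and above background with Rif1 siRNA. Adcy1, Adcy2, Adcy4 and this further Adcy5 probe thus passed the filter only through the Rif1 siRNA arrays. The probes of Adcy8 and Adcy10 did not pass the filter.

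**Figure D4:**
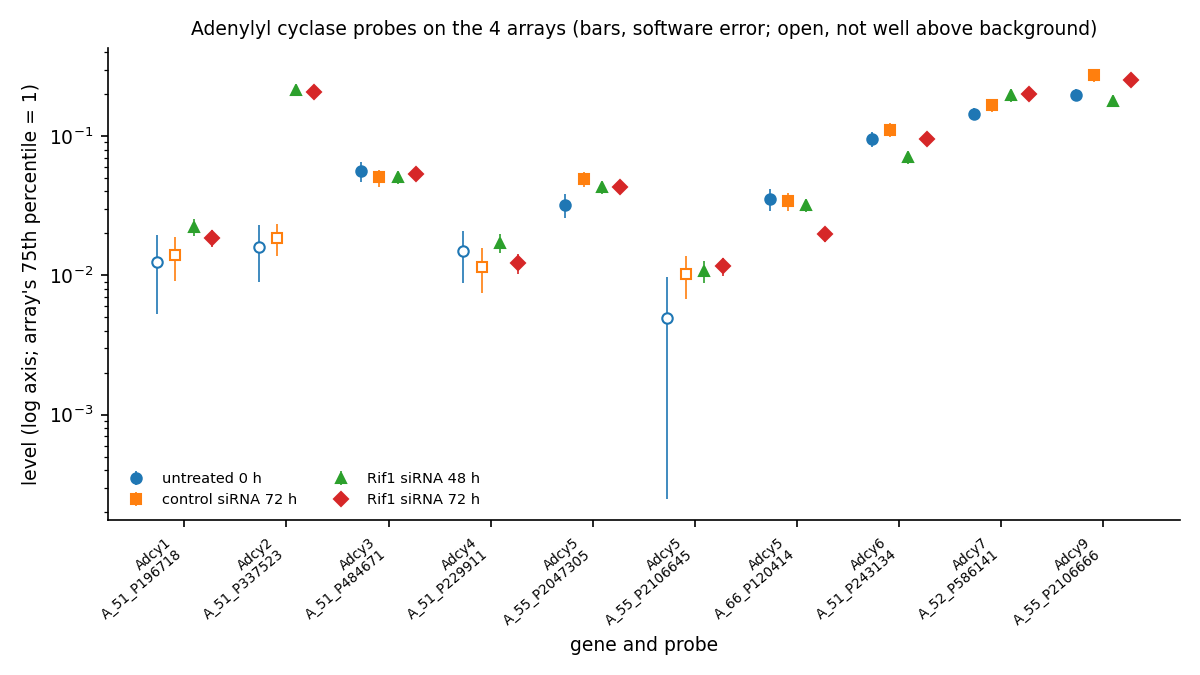
Levels of the 10 adenylyl cyclase probes that passed the filter (array's 75th percentile = 1, log axis) on the 4 arrays; bars are the scanner software's error and open points are not well above background. For Adcy2 the Rif1 siRNA points, 0.214 and 0.208, lie far above the open control points; Adcy1, Adcy4 and one Adcy5 probe are also open without Rif1 siRNA and closed with it, and levels of different probes are not comparable.

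Genes that act with cyclases in cyclic AMP signalling, such as the subunits of protein kinase A, phosphodiesterases and CREB family factors, had 81 probes of 39 genes. Of these 59 passed the filter. None of the 52 with a value at 72 h and none of the 53 with a value at 48 h was over 2-fold higher or lower. Over all probes 2.82% were higher and 1.01% lower at 72 h, so counts of 0 in a list of this size are near the share over all probes. Their median log2 difference at 72 h was -0.04, against -0.05 over all probes. Prkar2b, a regulatory subunit of protein kinase A, had the highest fold of this list, 1.69 by 1 of its 3 probes, of which the lowest was at 1.48. The lowest, 0.659, was that of 1 probe of Atf1, a CREB family factor, whose other 2 probes were at 0.998 and 0.988.

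Because Adcy2 is best known from neurons, markers of neural and other cells were counted beside it. The 17 probes of 12 ES cell markers, such as Pou5f1 and Nanog, all passed the filter and 0 were over 2-fold either way at 72 h, with a summed level of 438 untreated, 437 with control siRNA, and 435 and 414 with Rif1 siRNA. Among 14 neural marker probes that passed, 1 was over 2-fold higher at 72 h and 0 were at 48 h, where 2.82% and 3.17% of all probes were. It was Dcx, counted as 3.25-fold over a dim control by the only 1 of its 3 probes that passed. The summed level of the neural list, over all 21 of its probes whether they passed or not, was 8.16 untreated and 7.03 with control siRNA. It was 7.06 and 6.85 at 48 h and 72 h of Rif1 siRNA. Bright probes weigh most in such sums. The fibroblast list (6 probes) and the primitive endoderm list (10 probes) had 0 called over 2-fold either way at 72 h or 48 h. The fibroblast list had a median log2 difference of 0.50 at 72 h and 0.42 at 48 h, and the primitive endoderm list one of -0.20 at 72 h and 0.32 at 48 h. The part of these lists in the value of Adcy2 was not tested.

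The 10 other probes with the pattern most like the run were found by the distance of their log2 differences to untreated cells from the median of the 8 member probes measured on all 4 arrays. Among 22515 candidates the nearest was Gm10697 on chromosome 3, at a distance of 0.04 (log2 units). It read 0.0582, 0.0623, 0.623 and 0.684 on the 4 arrays, so that it was 1.07-fold between control siRNA and untreated cells and 11.0-fold at 72 h. The others were Usp17ld, a deubiquitinase gene, Sp110, a nuclear body protein gene, Cpb2, a carboxypeptidase gene, the oogenesin gene Oog2, 3110040M04Rik, B020031M17Rik and the unnamed A_55_P2077546, A_55_P1980214 and A_55_P2079757. Their distances ran up to 0.38, against a median of 5.03 over all candidates. The likeness is over 4 arrays only and was built on the values that chose the run.

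Promoter sequences from RefSeq are shown for 2 of the 7 members, because the genes were high on the same arrays. They are on GRCm38.p6, a later build than the mm9 positions of the probes. The promoters of Gm7969 and AA414992, which RefSeq also lists, were not in the promoter set used and were not searched. The capitals mark CG dinucleotides. The 300 bases from 250 before to 50 after the start of Urml (LOC101056219) hold 6 CG at 47% G and C, near the medians of 7 and 52.7% over 32851 promoters. The window of Adcy2 holds 32 CG at 75%, and 9.52% of promoters have as many CG. Only the 250 bases before the start of Adcy2 are printed. Neither window holds the TATA box word TATAAA, which 13.6% of promoters hold, or TGCACAC, a word bound by the 2-cell factor Zscan4, which 4.40% hold, each searched on both strands.
Urml, GRCm38.p6 chr13:68234682-68234981, minus strand: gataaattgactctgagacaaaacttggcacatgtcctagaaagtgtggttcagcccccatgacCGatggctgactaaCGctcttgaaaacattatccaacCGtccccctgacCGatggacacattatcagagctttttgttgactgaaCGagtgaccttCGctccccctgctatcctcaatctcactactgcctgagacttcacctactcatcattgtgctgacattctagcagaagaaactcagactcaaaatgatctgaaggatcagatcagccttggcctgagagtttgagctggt
Adcy2, GRCm38.p6 chr13:68999542-68999791, minus strand: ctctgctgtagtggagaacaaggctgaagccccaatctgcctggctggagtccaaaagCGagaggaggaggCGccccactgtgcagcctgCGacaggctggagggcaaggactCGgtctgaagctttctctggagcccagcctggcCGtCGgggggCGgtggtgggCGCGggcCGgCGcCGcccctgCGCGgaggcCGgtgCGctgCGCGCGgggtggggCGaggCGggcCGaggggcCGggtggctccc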

How the data were processed

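Total RNA was labeled with Cy3 and hybridized to 1 array per condition. The authors deposited Feature Extraction (version 11.5.1.1, per the submitters' processing notes) output, in which the processed signal of a spot is an intensity after background subtraction, and a table of each signal as a ratio to its array's 75th percentile, used as an alternative. Columns of per-sample values that fit no sample numbered 0.

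Here log2 of the processed signal minus the 75th percentile over 43020 non-control spots was taken, outlier spots (120 to 152 an array) were left out, and 399 repeated probes were averaged. No spot was saturated. The filter kept probes at or above the 20th percentile on at least 1 array and detected or compromised on at least 2 of 4. For a dim probe, the bound used its own level or the array's lowest level well above background (0.00543 to 0.0236), whichever was higher. Calls are over 2-fold, bounds included. A probe counted as similar to another by a shared word of 16 bases on either strand.

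The members and lists were chosen with earlier results of these data known. Named were all members, genes of the window over 2-fold and the nearest on each side, the cyclases, cyclic AMP genes over 2-fold, Rif1 and the 10 probes most alike; other names were picked after their values were seen. The fold rule and the search for shared words were tested on simulated data, and the scaling, the filter and the search for alike probes were not. Python 3.11.15, pandas 2.3.3, numpy 2.4.6, R 4.3.3 and limma 3.58.1 were used. Promoters are from RefSeq (GRCm38.p6). Alternatives were normexp, quantile or median scaling, the deposited ratios, outlier spots kept, dim signals as given, and other references, filters, thresholds, word lengths and windows.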

Additional observations from a re-analysis of the deposited data

How the results depend on the processing

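With 1 array a condition and the genes selected on these arrays, no setting replaces a replicate, and precision is limited by the number of arrays. All 9 probes were over 2-fold higher at 72 h and 48 h under each alternative run, and all 9 passed 4-fold at 72 h. Shifts of log2 values were read against 0.26, the SD of control siRNA minus untreated over probes. With normexp the members' median log2 difference was 3.10 at 72 h and 2.96 at 48 h, and the lowest, that of Adcy2 at 72 h, was 1.86. No paired analysis was possible because there was a single array a condition.

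The counts over all probes moved more. With normexp, 423 probes were over 2-fold higher and 118 lower at 72 h, 458 higher and 137 lower at 48 h, 70 higher between control siRNA and untreated cells and 34 higher at 72 h than at 48 h. With dim signals taken as given, 1265, 1398 and 509 probes were over 2-fold higher at 72 h, at 48 h and between control siRNA and untreated cells. With no filter, 455 were lower at 72 h, 507 lower at 48 h and 292 higher at 72 h than at 48 h. With the count limited to probes that neither array read as dim, 515, 573 and 86 were higher in the first 3 comparisons. At 4-fold, 359 were higher and 94 lower at 72 h, 375 higher and 76 lower at 48 h, 26 higher between control siRNA and untreated cells and 33 higher at 72 h than at 48 h. Words of 12 bases matched 145 other probes, and a narrower window held 1 other probe over 2-fold higher. The cause of these shifts was not tested beyond the construction of each setting. With quantile scaling 708 probes were over 2-fold higher at 72 h, 782 higher at 48 h and 410 lower at 48 h, and with median scaling 726, 789 and 404. Under these scalings, the deposited ratios and outlier spots kept, every count stayed within 1.5 times its reported value and every log2 value within 0.26.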
